A study of Homo sapiens with 2 samples.

Results

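The LDB1 peaks described here lay at the end of the long arm of chromosome 8 in NB4 cells. NB4 is a line of human acute promyelocytic leukaemia cells in which PML is fused to RARA. The members were chosen by the deposited peak positions alone: every listed LDB1 peak on chromosome 8 whose midpoint, the mean of its start and end, was at or above position 140000000 of the hg38 build. This gave 732 peaks of 53742 in the whole list, of 52765 on chromosomes 1 to 22 and X, and of 2779 on chromosome 8. The study held 1 CUT&Tag library made with an antibody against LDB1 and 1 made with a non-specific IgG. Both came from untreated NB4 cells, and no peak of the IgG library was analysed here. There was no replicate of either library, so replicate error is unknown for every value and no test between samples was possible.

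LDB1 is a nuclear adaptor that binds no DNA itself. By pairing with itself and with LMO proteins it links GATA and helix-loop-helix factors on distant DNA, so that enhancers and promoters are brought together. In CUT&Tag the antibody tethers a Tn5 transposase that cuts and tags nearby DNA. The transposase also cuts open chromatin on its own, and LDB1 binding and such background could not be told apart in the list. The end of the long arm of chromosome 8 is gene-rich. It holds the LY6 family of small lipid-anchored surface proteins, a group of zinc finger genes next to the telomere, and genes for the cytoskeletal linker plectin, focal adhesion kinase and Argonaute 2.

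The region ran over 5.08 Mb, to the last listed base of a gene or peak on the chromosome. It held 26.3% of the peaks of chromosome 8 on 3.5% of its sequence. That is 144 peaks per Mb (exact Poisson 95% interval 134 to 155), against 14.6 per Mb (14.0 to 15.3) on the rest of chromosome 8. Peaks covered 12.7% of the region and 0.987% of the rest of the chromosome. The region was chosen for where its peaks lie, so these densities describe the choice and were not tested. The depth behind the peaks is unknown, and each interval here covers counting error within this list only.

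The cut at 140000000 does not follow a gap between genes. It falls inside TRAPPC9, a gene for a subunit of a vesicle-trafficking complex. The first peak inside the region was 465 bp wide with its midpoint 12.5 kb above the cut, and the last peak outside it was 338 bp wide and 10.3 kb below. The next peaks inside were 873, 712 and 3838 bp wide, and the next outside were 432, 556 and 449 bp wide. The first Mb of the region held 63 peaks, while the Mb just before the region held 77. Each of the 9 Mb before that held 3 to 34. TRAPPC9 has its lower end at 139727725 and held 79 peaks, of which 24 lay inside the region. Most of the 77 peaks thus lay in the part of TRAPPC9 before the cut. The dense stretch therefore began before the region but within that last Mb.

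Peaks were spread unevenly within the region. The 1 Mb windows from its start held 63, 167, 229, 137 and 133 peaks, and the short remainder held 3. In full bins of 250 kb the count ran from 2 to 63. The bin with 2 lies wholly inside PTK2. The bin with 63 holds ARC, JRK, the higher end of ADGRB1 and the first of the LY6 genes. Bins with more genes did not always hold more peaks. The bin from 3.5 to 3.75 Mb overlapped 14 protein-coding genes and held 11 peaks, and the bin from 2 to 2.25 Mb overlapped 1 such gene and held 58.

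**Figure D1:**
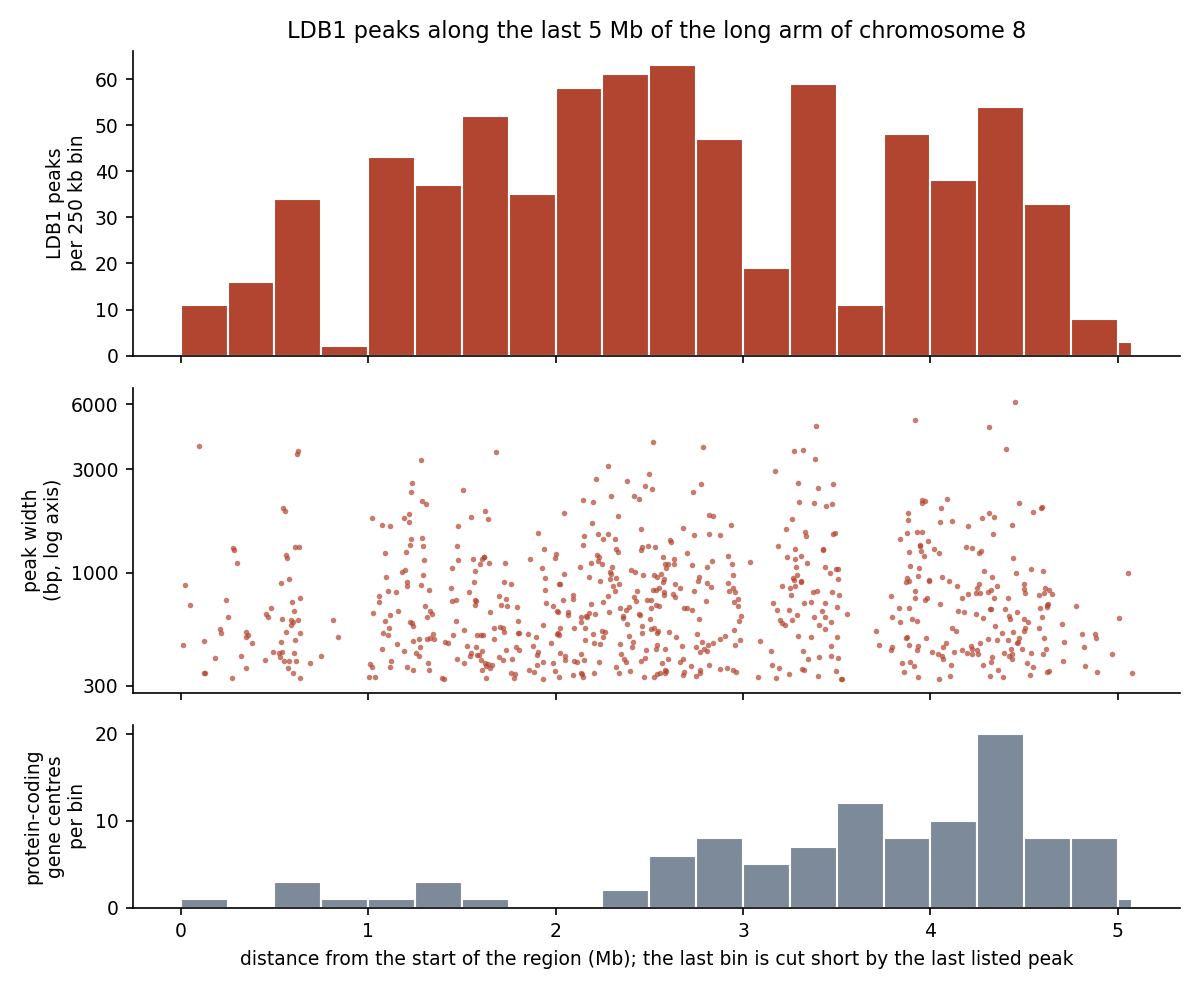
Number of LDB1 peaks per 250 kb bin (top), width of each of the 732 peaks in bp on a log axis (middle) and number of protein-coding gene centres per bin (bottom) along the region, by distance from its start in Mb. The bins with 58, 61 and 63 peaks lie between 2 and 2.75 Mb, and the bin from 3.5 to 3.75 Mb has 11 peaks beside 12 gene centres.

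Peaks of the region were wider by their medians than those on the rest of chromosome 8 and than all other peaks together. These intervals do not overlap, though no test was run. The intervals at the ends of chromosomes 12, 16, 19 and X do overlap that of the region. Their median width was 661.5 bp (exact interval of the median 623 to 700 bp, quartiles 452.5 and 1041 bp, range 323 to 6173 bp). The median was 532 bp (519 to 550 bp) on the rest of chromosome 8 and 548 bp (545 to 552 bp) over the 52033 other peaks on chromosomes 1 to 22 and X. A width of 1 kb or more was reached by 193 of the 732 peaks, 26.4% (exact binomial 95% interval 23.2 to 29.7%), against 14.8% (13.2 to 16.4%) on the rest of chromosome 8 and 16.3% of all other peaks. A width of 3 kb or more was reached by 16 peaks (2.19%, 1.25 to 3.53%). The share was 0.391% (0.169 to 0.769%) on the rest of chromosome 8 and 0.750% (0.677 to 0.827%) over all other peaks. At the end of chromosome 16 it was 4.32%. Width is not a measure of binding strength, and broad signal can be listed as several neighbouring peaks. When gaps of up to 1 kb were closed, the 732 peaks became 534 with a median of 795.5 bp.

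The greater width was seen inside genes and outside them, while at gene ends the intervals overlapped. Inside gene bodies, more than 1 kb from any protein-coding gene end, the median was 692 bp (626 to 766 bp, 359 peaks) in the region and 528.5 bp (496 to 557 bp, 860 peaks) on the rest of chromosome 8. Outside genes it was 626 bp (556 to 683 bp, 307 peaks) in the region and 509 bp (491 to 528 bp, 889 peaks) on the rest of the chromosome. Within 1 kb of a gene end it was 673.5 bp (576 to 824 bp, 66 peaks) in the region and 702.5 bp (637 to 759 bp, 298 peaks) on the rest of the chromosome. Whether the difference in width itself varied with position was not tested.

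**Figure D2:**
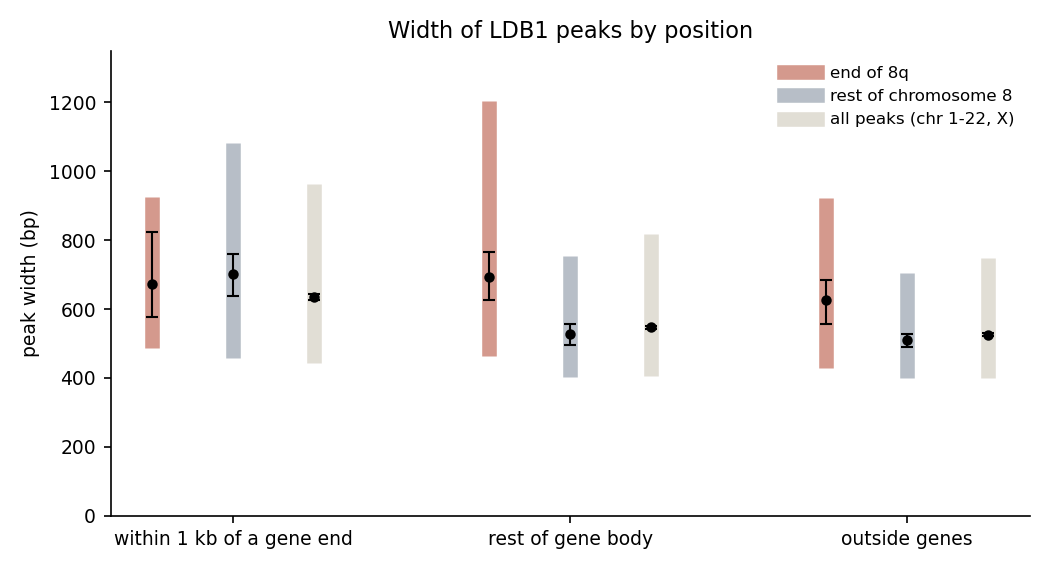
Width of LDB1 peaks in bp for peaks within 1 kb of a protein-coding gene end, in the rest of gene bodies and outside genes, for the region, the rest of chromosome 8 and all peaks. Bars span the quartiles, points are medians and error bars their exact 95% intervals. The medians of the region, 692 and 626 bp, stand above the others inside and outside genes.

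Few peaks of the region lay at gene ends, although many of its genes had one. A midpoint up to 1 kb from one or the other end of a protein-coding gene was found for 66 peaks, 9.02% (7.04 to 11.3%), against 14.6% (13.1 to 16.2%) on the rest of chromosome 8 and 14.9% of all peaks on chromosomes 1 to 22 and X. The low share was not particular to the region. In stretches of the same length at the ends of the other 22 chromosomes its median was 9.53%, and the region ranked 13 of 23. The gene table gave no strand for chromosome 8, so the start and the end of a gene were not told apart. Gene bodies beyond that distance held 49.0% of the region's peaks, and sequence outside genes held 41.9% (38.3 to 45.6%). On the rest of chromosome 8 these shares were 42.0% and 43.4% (41.3 to 45.6%). Counted by gene, 57 of the 105 protein-coding genes that reach into the region had a peak at an end, 54.3% (44.3 to 64.0%), where 37.6% of all protein-coding genes had one. A peak midpoint lay in the gene or within 10 kb for 92 of the 105, 87.6% (79.8 to 93.2%), where 70.1% of all protein-coding genes had one. At the other 22 chromosome ends the median share within 10 kb was 85.2%, and the region ranked 10 of 23. For a peak at a gene end that median was 39.8%, and the region ranked 2. A midpoint lay in the body of 66 of the 105 (62.9%), where the share over all genes was 54.5%. The rule used peak positions, so nothing about the genes is read from these counts. Neighbouring genes also share peaks. Of the 57 genes, 12 had a peak at both ends.

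Counts by gene length were as follows. Among the 54 genes under 10 kb, a peak lay at an end of 29 (53.7%) and in or within 10 kb of 46 (85.2%), where 37.3% and 62.1% of all genes of that length did. All 13 genes of 50 kb or more had a peak in the body, where 71.4% of all such genes did.

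Long genes differed greatly in how many peaks they held per length. Over the 6258 protein-coding genes of 50 kb or more in the series the median was 1.03 peak midpoints per 100 kb of gene body. Over the 13 of the region it was 19.7, with a range of 1.16 to 35.7. The region as a whole held 144 peaks per Mb and was chosen by peak positions. These gene densities and their ranks therefore describe the choice as well, and were not tested. ADGRB1, an adhesion receptor gene known for its expression in brain and its role in taking up apoptotic cells, had 34 peaks in 95.4 kb, or 35.7 per 100 kb. As many per length were found in 6 of the 6258 long genes, ADGRB1 included. PLEC, the plectin gene, had 20 peaks in 61.6 kb (32.5 per 100 kb). Their median width of 1122.5 bp was the highest of the 13, and they covered 42.8% of the gene. TSNARE1, a gene for a vesicle-fusion protein, had 47 peaks in 195 kb (24.1 per 100 kb), and 15 genes of the series, TSNARE1 included, had as many in the body. TRAPPC9 had 79 peaks over its 731 kb, of which 24 lay inside the region. In number that was reached by 4 genes of the series, TRAPPC9 included, but per length (10.8 per 100 kb) by 349 of the long genes.

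AGO2 and its neighbour PTK2 held 26.2 and 1.16 peaks per 100 kb. AGO2 encodes Argonaute 2, the slicer of RNA interference, and had 32 peaks in 122 kb. They ran through the gene, and the widest were 3651 and 3530 bp (140623384 to 140627034 and 140616748 to 140620277). PTK2 encodes focal adhesion kinase and had 4 peaks in 344 kb, of 381, 414, 605 and 503 bp. After the last of them came the longest stretch without a peak in the region, 165.7 kb (140839271 to 141004972), all but its end inside PTK2. The midpoint of the next peak lay 3.06 kb beyond PTK2. SLC45A4, a solute carrier gene, had 25 peaks in 101 kb (24.7 per 100 kb) with the widest at 3334 bp. Of the 3 peaks counted at its ends, 1 had its midpoint 0.265 kb outside the gene. DENND3, a gene for a Rab exchange factor next to SLC45A4, had 7 in 67.2 kb (10.4 per 100 kb). MROH1, a gene of the maestro heat-like repeat family, had 19 in 114 kb (16.7 per 100 kb).

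**Figure D3:**
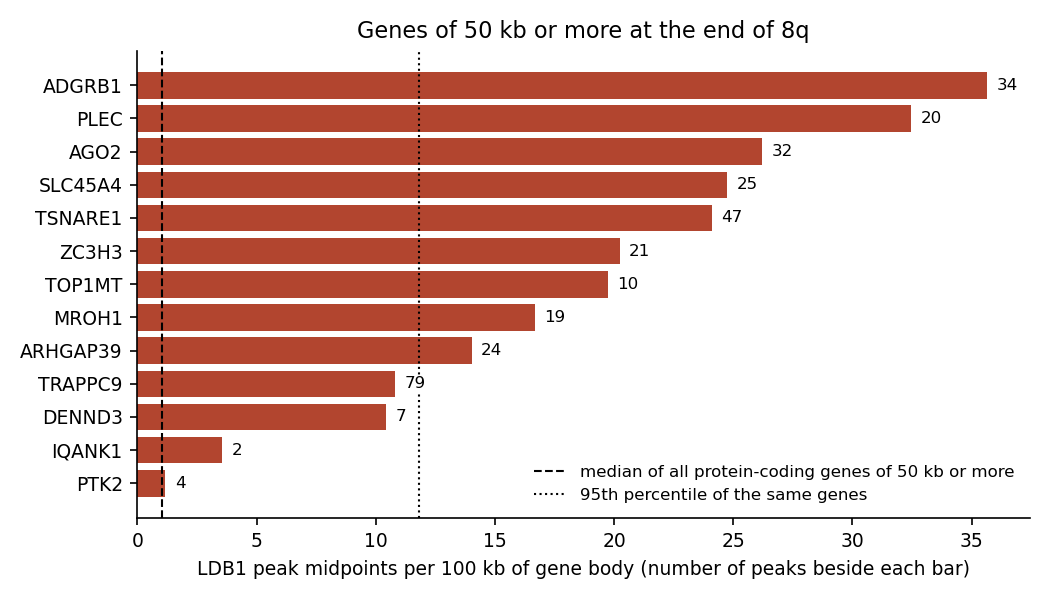
LDB1 peak midpoints per 100 kb of gene body for the 13 genes of 50 kb or more in the region, with the number of peaks beside each bar. The dashed line is the median of all 6258 such genes, 1.03 per 100 kb, and the dotted line their 95th percentile, 11.8. ADGRB1 is highest at 35.7, and PTK2 at 1.16 is near the median.

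Most peaks of the region stood in clusters. When peaks with a gap of 10 kb or less were joined, 598 of 732 (81.7%, 78.7 to 84.4%) fell into clusters of at least 5, against 23.8% on the rest of chromosome 8. In stretches of the same length at the ends of the other 22 chromosomes it ran from 14.3 to 75.9%, with a median of 43.9%. The share follows the density the region was chosen for. The largest cluster held 81 peaks over 283 kb (142358773 to 142641294) and ran from TSNARE1 through ADGRB1 to ARC, the gene of a synaptic immediate-early protein. In the whole series 7 clusters held more peaks. The cluster after it held 36 peaks over 148 kb (141536753 to 141684352) and overlapped no protein-coding gene. The next lay over AGO2 with 32 peaks. A cluster of 30 peaks covered ZFP41, GLI4, ZNF696 and part of TOP1MT, and one of 26 covered PLEC, GRINA and part of PARP10.

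Peaks also filled the sequence without protein-coding genes. Between the higher end of PTP4A3, a gene for a tyrosine phosphatase, and the lower end of TSNARE1 lie 780 kb. They hold 1 protein-coding gene, C8orf90. This stretch held 145 peaks, 19.8% of the region's total, at 18.6 per 100 kb. The gene-rich stretch from MAPK15 to ARHGAP39, 807 kb with 45 protein-coding genes, held 147 peaks at 18.2 per 100 kb. The stretches thus held peaks at nearly the same density. The gene-poor stretch also held 14 genes that are not protein-coding, 8 of them with midpoints in the body, 23 in all. The gene-rich stretch held 24 such genes, 8 of them with midpoints in the body, 16 in all. Median width was 560 bp in the gene-poor stretch and 682 bp in the gene-rich one. The widest peak of the gene-poor stretch was 3611 bp (141680742 to 141684352), with its midpoint 164 kb from the nearest protein-coding gene end. PTP4A3 itself had 4 peaks in its body, none wider than 480 bp.

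Of the 15 widest peaks, the widest was 6173 bp and reached across an end of ZFTRAF1, a zinc finger gene (144447845 to 144454017). A peak of 5098 bp lay inside PLEC (143917378 to 143922475). A peak of 4709 bp covered the junction of HSF1, the gene of the heat shock master regulator, and DGAT1, which encodes an enzyme that makes triglycerides (144312469 to 144317177). ADGRB1, TRAPPC9, CPSF1, TOP1MT and GLI4 each held 1 inside the gene, of 4011, 3838, 3750, 3674 and 3643 bp. The 3838 bp peak also had its midpoint in PEG13, a long non-coding RNA gene within TRAPPC9, and reached across an end of PEG13. One of 3793 bp crossed an end of LY6D. Only the peaks at HSF1 and LY6D had their midpoint within 1 kb of a protein-coding gene end, so 2 of the 15 counted as gene-end peaks.

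The 6 gene lists below group 84 genes of the region by role. They were written by hand, and some members, such as TRAPPC9, TSNARE1 and COMMD5, fit the role of their list only loosely. Median peak number per gene, in the gene or within 10 kb, was 5 over the 105 genes of the region and 1 over all protein-coding genes. Of the region's genes, 87.6% had a midpoint inside or up to 10 kb away and 54.3% had one at an end, and over all protein-coding genes the shares were 70.1 and 37.6%. The lists are described by their counts beside these shares, no test was run, and nothing particular to a list is read from them.

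LY6 and uPAR family genes encode small surface or secreted proteins with a three-finger fold. Of 12 such genes, 11 had a peak in or within 10 kb and 8 had one at an end, with a median of 4 per gene. The shares were 91.7% and 66.7%, against 87.6% and 54.3% over the region and 70.1% and 37.6% over all genes. PSCA, a prostate stem cell antigen gene, had 8 peaks, the widest (1610 bp) across its end. LYNX1, whose product modulates nicotinic receptors, also had 8, and its neighbour SLURP2 had 7. SLURP1 had 5, all outside the gene, and LY6K had 2 of up to 1237 bp. LYPD2 had 4, of which 3 lay at its ends with widths of 451, 334 and 521 bp. LY6D, a marker gene of early B cell and squamous lineages, had 4 with the widest at 3793 bp, and GML also had 4, of up to 1820 bp. LY6E, an interferon-induced gene that restricts virus entry, had none, and LY6L had 2 of up to 482 bp. LY6S, a protein-coding gene between LY6E and LY6L, was not on the list. It had 2 within 10 kb and none in its body or at an end. LY6H had 4, and the widest, 2967 bp, lay outside the gene. GPIHBP1, which anchors lipoprotein lipase to capillary walls, had 3 of up to 865 bp. LYNX1 and SLURP2 both overlap the read-through gene LYNX1-SLURP2, which had 9, and share peaks with it.

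Of 18 zinc finger and other DNA-binding factor genes, 14 had a peak in or within 10 kb and 6 had one at an end, with a median of 3 per gene. These are 77.8% and 33.3%, against 87.6% and 54.3% of the region's genes and 70.1% and 37.6% of all genes. HSF1 had 11 peaks, and GLI4, a gene of the GLI zinc finger family, had 10. SCRT1, which encodes a neural repressor, had 9. ZFP41, ZNF696 and JRK had 8 each, and MAFA, the gene of an insulin activator in beta cells, had 7, none of them at its ends. SCX, the gene of the tendon factor scleraxis, had 6, and FOXH1, a gene for a forkhead partner of SMAD proteins, had 3 of up to 2108 bp. After ARHGAP39, next to the telomere, lie 6 zinc finger genes. ZNF517 and ZNF250 had 3 each, ZNF7 had 2, ZNF251 and ZNF34 had 1 each, and ZNF16 had none, and no peak lay at an end of any of these 6. The 376 kb after ARHGAP39 held 14 peaks at 3.73 per 100 kb, the widest of 995 bp, near C8orf33. ZNF623, ZNF707 and TIGD5, which lie elsewhere, also had none.

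Of 11 genes of the cytoskeleton, adhesion and cell polarity, 11 had a peak in or within 10 kb and 8 had one at an end, with a median of 8 per gene. In percent this was 100 and 72.7, against 87.6 and 54.3 for the region and 70.1 and 37.6 for all genes. The highest were ADGRB1 with 38, ARHGAP39, the gene of a GTPase-activating protein, with 27, and PLEC with 23. EPPK1, the epiplakin gene, had 13. SCRIB, a polarity gene, had 4, of up to 778 bp, and FAM83H, a keratin-organising gene, had 1 of 465 bp.

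Genes of signalling, immunity and cell death had a peak in or within 10 kb in 14 of 14 cases and at an end in 8, with a median of 5. The share at an end was 57.1%, against 54.3% of the region's genes and 37.6% of all genes, and the shares in or within 10 kb were 100, 87.6 and 70.1% in the same order. The vesicle genes TRAPPC9 and TSNARE1, also placed on this list, had 80 and 53. Of the 79 peaks in the body of TRAPPC9, 24 lay inside the region. PARP10, which encodes a mono-ADP-ribosyltransferase, had 9, of up to 2143 bp. SHARPIN, a subunit gene of the linear ubiquitin ligase, had 3, with 1 at each end. GSDMD, the gene of the pore-forming protein of pyroptosis, had 1 of 645 bp across its end. GPR20 had 1 and MAPK15 had 2.

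Of 15 genes of RNA handling, translation and genome maintenance, 12 had a peak in or within 10 kb and 7 at an end, with a median of 5. The shares of 80% and 46.7% lie between those of the region's genes (87.6% and 54.3%) and of all genes (70.1% and 37.6%). AGO2 had 32, ZC3H3, an mRNA export gene, had 24, and TOP1MT, the mitochondrial topoisomerase gene, had 14. BOP1, a ribosome biogenesis gene, had 9 and none at an end. CPSF1, a subunit gene of the poly(A) cleavage complex, and TONSL, a replication fork repair gene, had 8 each. RECQL4, a helicase gene, had 5 of up to 837 bp and none at an end. PUF60, a splicing factor gene, had 2, and 1 of them (683 bp) reached across the facing ends of PUF60 and NRBP2. EEF1D, which encodes an elongation factor subunit, RPL8, a ribosomal protein gene, and COMMD5 had none.

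Genes of metabolism and transport had a peak in or within 10 kb in 11 of 14 cases and at an end in 9, with a median of 4. That is 78.6% and 64.3%, against 87.6% and 54.3% in the region and 70.1% and 37.6% over all genes. SLC45A4 had 31 and DGAT1 had 12. OPLAH, a gene of glutathione turnover, had 9, and GPT, an alanine transaminase gene, had 7. CYP11B1 and CYP11B2, the genes of the last steps of cortisol and aldosterone synthesis, had 3 and 5, each with 1 at an end of 1489 and 1188 bp. These genes are close copies, and since the handling of reads that align to several places is not given, their peaks are uncertain. NAPRT, a gene of NAD synthesis, PYCR3 and GFUS had none.

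**Figure D4:**
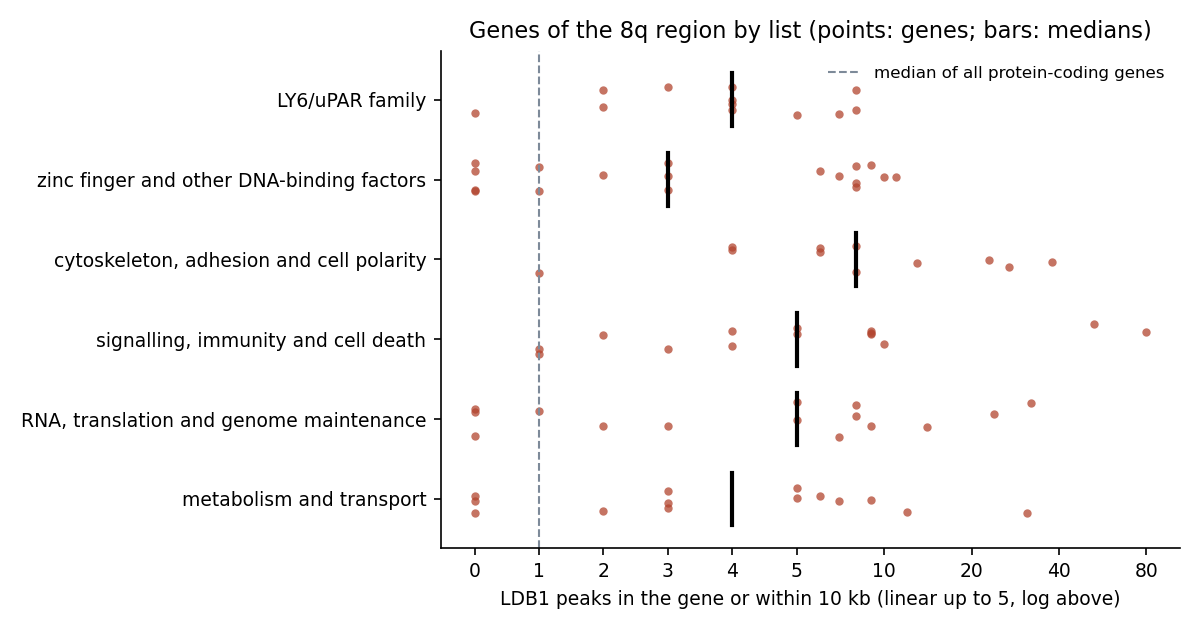
LDB1 peaks in the gene or within 10 kb for each gene of the 6 lists, on an axis that is linear up to 5 and logarithmic above. Points are genes, black bars the list medians (4, 3, 8, 5, 5 and 4 from top to bottom) and the dashed line the median of all protein-coding genes, 1.

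The genes without peaks were mostly neighbours. Of the 13 genes with none in or within 10 kb, 8 form a run from MROH6 through NAPRT, EEF1D, TIGD5, PYCR3, GFUS and ZNF623 to ZNF707. A gap of 152.6 kb without a peak (143553913 to 143706513) spans them, between a 645 bp peak at GSDMD and a 538 bp peak at CCDC166. The whole series held 77 runs of 8 or more neighbouring genes without a peak, with 1105 of the 5978 genes that had none. The other 5 were LY6E, RPL8, COMMD5, ZNF16 and the predicted gene LOC124902042. The list also held 112 peaks on 16 alternate contigs of chromosome 8, whose positions along the chromosome were not used here. Whether any of the gaps are filled on such a contig was not tested.

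Non-coding genes of the region had peaks too. A midpoint lay in the body of 30 of 56 long non-coding RNA genes (53.6%), where the share over all such genes was 23.2%. MROH5, listed as a miscellaneous RNA gene and named after its value was seen, had 10 peaks in 73.4 kb. Of 17 microRNA genes, 8 had a midpoint in the gene or within 1 kb, where 17.3% of all microRNA genes did. MIR1234 and MIR6849 overlap the same 3750 bp peak inside CPSF1, and MIR939 in the same gene overlaps one of 424 bp. MIR661 inside PLEC overlaps a peak of 1332 bp, MIR6846 inside OPLAH one of 1987 bp and MIR6893 inside TONSL one of 1669 bp. MIR4472-1 and MIR6848 make up the 8. These peaks also count for the host genes, and the microRNA sequences are not shown.

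The stretches of the same 5.08 Mb at the end of the other 22 chromosomes put the region in context. It held the most peaks, 732, followed by the ends of chromosome 17 with 601, chromosome 16 with 556 and chromosome 21 with 497. The lowest of the others was 77 and their median 236.5. Per protein-coding gene it ranked 6 of 23 with 6.97 peaks, against 5.95, 8.55 and 6.14 at the ends of chromosomes 17, 16 and 21. Its median width of 661.5 bp (623 to 700 bp) was above the medians of all the others. The highest of these was 651.5 bp (607 to 699 bp) at the end of chromosome 16, and these intervals overlap. So do those at the ends of chromosomes 19 (650.5 bp, 602 to 728 bp), X (591 bp, 547 to 626 bp) and 12 (576 bp, 545 to 626 bp). Outside protein-coding genes lay 41.9% (38.3 to 45.6%) of the peaks of the region, against 29.6% (26.0 to 33.4%) at the end of chromosome 17, 20.1% (16.9 to 23.7%) at that of 16 and 34.8% (30.6 to 39.2%) at that of 21. Over all 22 other ends the median of this share was 38.2% and the highest 68.8%, and the region ranked 7 of 23. Protein-coding genes covered 56.5% of the sequence of the region, and 70.4, 54.5 and 61.9% at the ends of chromosomes 17, 16 and 21. A width of 3 kb or more was reached by 2.19% of the peaks in the region, against 0.333, 4.32 and 1.41%. The ends of chromosomes 17, 16 and 21 were picked for their peak numbers, and the differences were not tested.

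**Figure D5:**
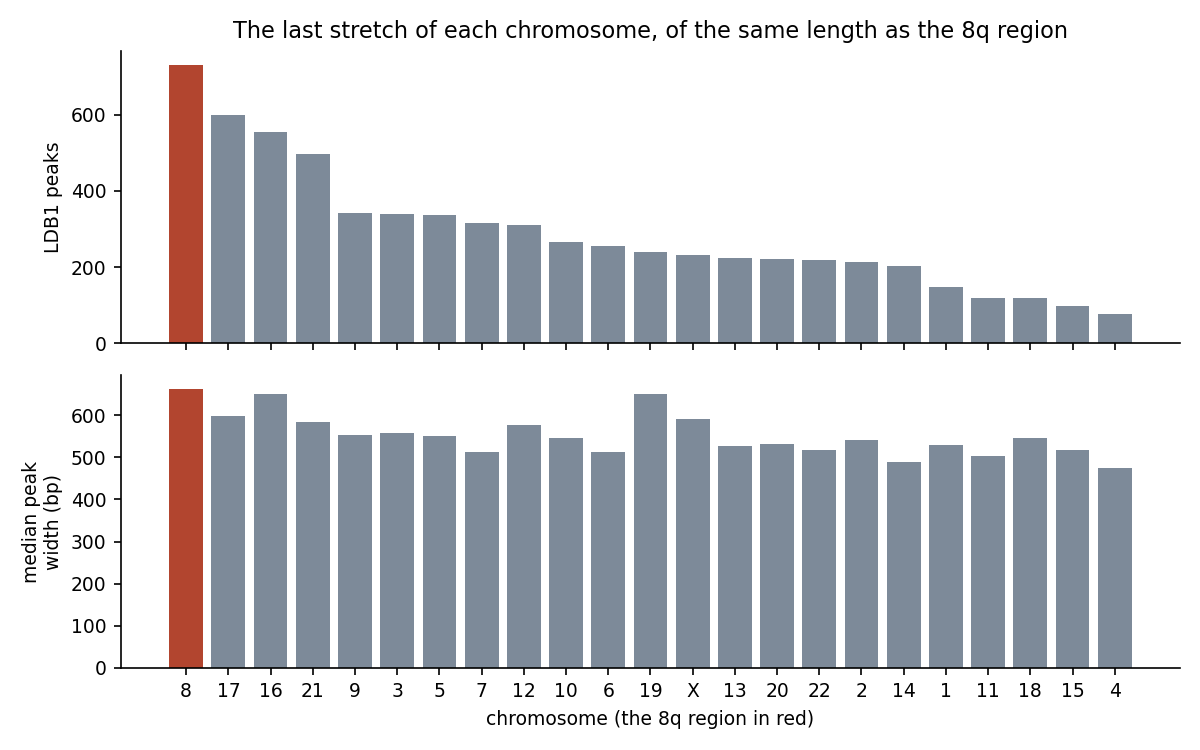
Number of LDB1 peaks (top) and their median width in bp (bottom) in the last stretch of each chromosome, of the same length as the region, in order of peak number. The region, in red, has 732 peaks and a median of 661.5 bp, followed in number by chromosome 17 with 601.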

How the data were processed

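CUT&Tag libraries of untreated NB4 cells were made with an LDB1 or an IgG antibody, 1 each, with a Vazyme kit per the labels' protocols. Only the LDB1 peak list was used. Per the file headers it gives chromosome, start, end and the deposited width (length) in bp, counted from 1. Per the submitters' processing notes the build was hg38, with Bowtie2 2.4.1 and MACS2 2.0.10. The sources used here give no parameters, threshold, duplicate handling or use of IgG as control. Peak number and width grow with depth and a looser threshold, and the list holds no height, score or read total.

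Genes came from a RefSeq table of GRCh38.p14 (19974 protein-coding genes, chromosomes 1 to 22 and X). Midpoints were assigned to a gene end (1 kb), then a gene body, then outside. Peaks 10 kb or less apart were joined. The older symbol of 1 listed gene was replaced by the current one. Intervals are exact binomial, Poisson or order-statistic at 95%. Python 3.11.15, pandas 2.3.3 and scipy 1.17.1 were used, and the overlap code was tested on simulated data. The genes named were taken from the list members, the 15 genes with most peaks, those at the 15 widest peaks, the 5 largest clusters and the 5 longest gaps, microRNA genes with a peak, and those at the cut. Not all of them are printed. The region, lists and rules were chosen with earlier results of these data known. No test was run, as there was 1 library per antibody. Alternatives changed distances, peaks, gene types and the start of the region.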

Additional observations from a re-analysis of the deposited data

How the results depend on the processing

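Of 39 other settings of the main values, 20 stayed within the interval of the value (for list counts, within 1.5 times) and 19 did not. The share of peaks at a gene end was 4.78% at 500 bp, 16.7% at 2500 bp, 14.1% with genes of all biotypes and 13.0% when any base of the peak counted. At 2500 bp the share over all peaks was 23.4%. The share outside genes was 34.8% with all biotypes. Peaks per Mb were 87.5 with the widest 50% of peaks (550 bp or more, 444 of the region's), 164 with the start of the region moved 1 Mb up and 133 with it moved 1 Mb down. Median width was 795.5 bp with gaps of up to 1 kb closed. The share in clusters was 55.1% at 5 kb, 93.3% at 20 kb and 72.5% with the widest 50%. Genes with a peak at an end were 35.2% at 500 bp, 76.2% at 2500 bp and 39.0% with the widest 50%, where all genes gave 24.2%. Genes with a peak in or within 10 kb became 62.9% for the body only, 98.1% within 50 kb and 78.1% with the widest 50%, where all genes gave 52.5%. The LY6 and uPAR list had 6 genes with a peak in the body only, against 11 within 10 kb. No paired analysis was possible because there was 1 library per antibody and 1 peak list. The depth is unknown, so an absent peak is not an absence of binding.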
